A study of Mus musculus with 15 samples.

Results

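Of the 15 arrays of this series 6 were compared: the 3 arrays of kidney fibroblasts taken at day 14 of unilateral ureteral obstruction (UUO) and the 3 arrays of fibroblasts from uninjured kidney. The arrays were chosen by their titles alone, and all 17097 genes measured were considered, of which 13523 were bright enough to test. All samples came from adult C57BL/6 mice, and the cells were sorted by flow cytometry as PDGFRa-positive fibroblasts. The UUO group had 1 ureter blocked and was sampled once, at day 14. The uninjured group is labelled as uninjured, with no time point and no sham operation named. The other 9 arrays (3 each at day 3, day 7 and day 14 after folic acid, which injures the tubules) share the fit and serve here only to show where UUO differs from them. The labels name no transgene, no agent in the controls and no pooling of animals, and they do not say whether arrays of a group are separate animals. The p-values measure the spread between these arrays, which may be technical.

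Kidney fibroblasts are the stromal cells that lie between the tubules and the small vessels. When the ureter is tied, pressure and inflammation injure the tubules, and fibroblasts become myofibroblasts, contractile cells that carry smooth muscle actin and lay down collagen. UUO is used as a model of progressive fibrosis because the cause is not removed, whereas tubules can recover after folic acid. The question of the comparison is what distinguishes fibroblasts of a chronically obstructed kidney from those of a healthy one.

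Levels are log2 intensities of 1 probe set per gene, and a fold is the change taken off the log scale. The UUO arrays carry the numbers 10, 11 and 12 and the uninjured arrays 13, 14 and 15, and values are given in that order. Means are ± SD with n = 3 arrays, and changes are log2 UUO minus uninjured with their standard error (SE). Levels are compared only within a gene, since probe sets differ in brightness. A gene was called when its adjusted p from limma, fitted to all 15 arrays, was under 0.05.

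The fibroblast label was borne out by its markers in the UUO arrays and only in part in the uninjured ones. Of 23 measured markers of resident and adventitial fibroblasts, 12 lay above the upper quartile of all genes in every UUO array, and 5 in that of every uninjured array. Decorin (Dcn), a collagen-binding proteoglycan that defines fibroblasts, stood at 11.02, 11.22 and 10.88 in UUO and at 6.88, 6.51 and 5.51 in uninjured kidney, where the array medians lay between 4.97 and 5.06 over these 6 arrays. The gene used for the sort did not separate the groups. Pdgfra read 6.54, 5.71 and 5.71 in UUO and 6.43, 5.68 and 5.91 in uninjured kidney (difference -0.02, SE 0.59, adjusted p = 0.988). Pdgfrb, its partner receptor on pericytes and fibroblasts, read 9.84, 9.62 and 9.63 against 10.14, 9.76 and 8.68 (difference 0.17, adjusted p = 0.802). The groups overlapped for both receptors.

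Tubule genes moved with the groups throughout. The mean of 18 proximal tubule markers was 5.78, 5.41 and 5.49 in UUO and 8.17, 8.56 and 9.64 in uninjured kidney, and 15 of 20 measured markers lay above the upper quartile of every uninjured array, against 2 in UUO. The mean of 25 markers of the thick limb, distal tubule and collecting duct was 5.97, 5.78 and 5.94 against 8.13, 8.48 and 7.98. Uninjured array 15 stood apart in both directions, with the highest proximal tubule mean and the lowest fibroblast mean (5.78, against 6.21 and 6.09 in its group and 7.74, 7.90 and 7.91 in UUO). In RNA of sorted pools, fewer cells of a type and less RNA per cell cannot be told apart. The lists were therefore also counted in a second fit that holds the proximal tubule mean of each array as a covariate, called the covariate fit below. In it no member was called in 19 of the 48 lists: basement membrane, BMP, hedgehog, YAP and TAZ, Notch, IL-6 family, glycolysis, respiratory chain, unfolded protein response, oxidative stress, immediate early and hyaluronan genes, and the markers of pericytes, proximal tubule, injured epithelium, lymphocytes, neutrophils, erythroid cells and nerve or mesothelium. The proximal tubule markers make up the covariate itself, so the lack of calls in their list was fixed in advance and carries no information. Since the tubule mean differed between these groups without overlap, the group and the tubule signal cannot be told apart in these 6 arrays, and that fit leans on the folic acid arrays.

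**Figure D1:**
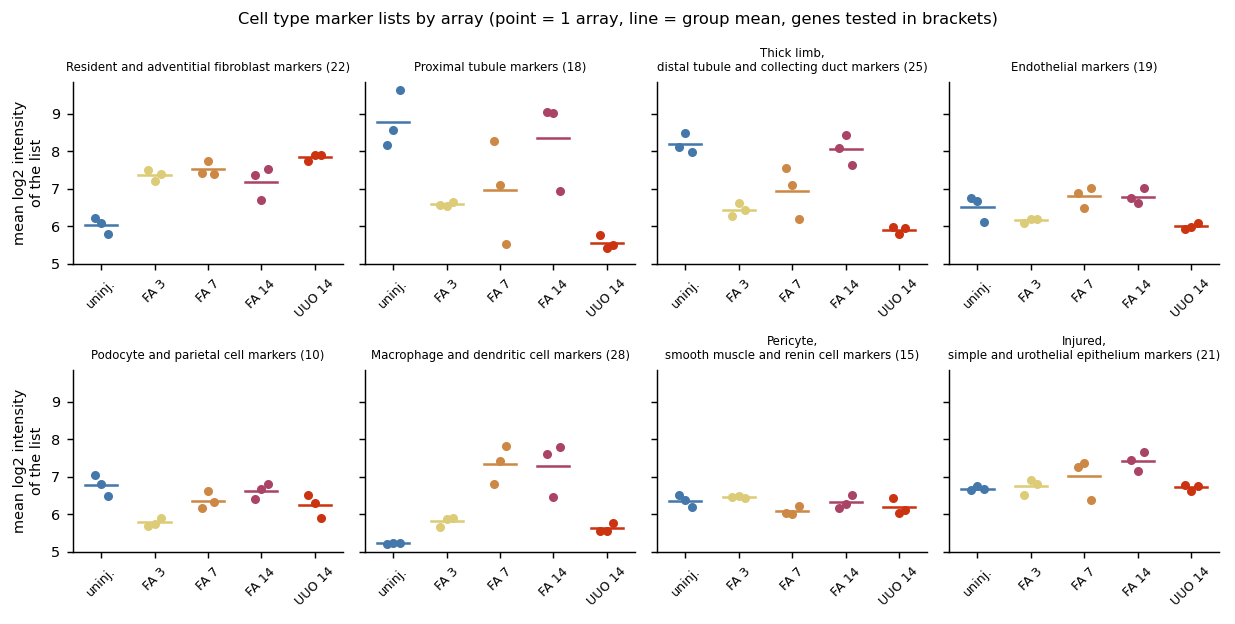
Mean log2 intensity of the tested members of 8 cell type marker lists (y axis) in each array of the 5 groups (x axis: uninjured, folic acid day 3, 7 and 14, UUO day 14); points are arrays and lines are group means. The UUO arrays lay between 7.74 and 7.91 for fibroblast markers and between 5.41 and 5.78 for proximal tubule markers, and the uninjured arrays between 5.78 and 6.21 and between 8.17 and 9.64.

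Of the 13523 genes tested, 2244 (16.6%) were called: 1227 (9.07%) were higher in UUO and 1017 (7.52%) lower. Counts of list members called in this comparison are to be read beside these shares. The balance depended on scaling: quantile normalization gave 1193 higher and 1277 lower, and median centring 1340 higher and 823 lower. The median change of all genes tested was -0.006. Among called genes the median was 1.44 for those higher and -1.26 for those lower, and 135 rose and 97 fell by more than log2 3. The 3 UUO arrays did not overlap the 3 uninjured arrays for 5571 genes (41.2%), which included 2228 of the 2244 called. The largest number of calls lost to 1 array came from uninjured array 15, without which 1495 genes were called, and the lowest and highest counts with 1 array left out were 1495 and 1819. With each of the 6 arrays left out in turn, 1189 genes were called every time, 760 of them higher. With the tubule covariate 306 genes were called, 252 of them among the 2244, and 186 of these 252 were higher.

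The 15 largest rises were led by matrix and adhesion genes. Cdh11, a cadherin that joins fibroblasts to one another, stood at 11.08, 10.87 and 10.99 in UUO and at 4.36, 4.04 and 3.74 in uninjured kidney. Aldh1a2, the enzyme that makes retinoic acid, stood at 10.52, 11.06 and 10.90 against 5.12, 5.22 and 4.85, a 54.3-fold rise (log2 5.76, SE 0.22, adjusted p = 3.28e-08). Both genes were bright in each UUO array and near or under the array median in each uninjured one. Serpinf1, which encodes the secreted serpin PEDF, Gja1, the gap junction protein connexin 43, and Htra3, a secreted serine protease, also rose. Matn2, a filament-forming matrilin, rose too, and Spon1, a secreted matrix protein of the spondin family, rose 39.1-fold. The rest of the 15 were Col3a1, Col6a1, Col15a1, Col1a1, Col6a2, Colec12, Lgi2 and Mfap4, and all 15 were called with the tubule covariate and with each array left out. The second probe set of Htra3 was not called. In 5 of the 15 (Cdh11, Serpinf1, Gja1, Htra3 and Matn2) every uninjured array lay under its 40th percentile (4.64 to 4.69), where a level is close to background and the size of a rise is not exact. Of genes named below the same holds for Lum, Il33, Wnt5a, Smoc2, Adamts4, Col1a2, Col8a2, Actg2, Lcn2, Agtr2, Cenpa, Fap, Pgr, Mc2r, Pamr1 and Cfhr2. By the mean of the uninjured arrays, 97 of all genes that rose lay under the 40th percentile.

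The 15 largest falls included 4 members of the tubule marker lists: Slc27a2 and Acsm2 of the proximal list and Klk1 and Egf of the distal list. Ugt3a2, a glycosyltransferase of the UGT family, stood at 6.85, 4.79 and 5.25 in UUO and at 11.40, 11.35 and 12.08 in uninjured kidney, 63.0-fold lower (log2 -5.98, SE 1.16, adjusted p = 0.00397). Slc27a2, a fatty acid transporter of the proximal tubule, was 46.6-fold lower, Cltrn, the amino acid transport partner collectrin, 43.2-fold, and Acsm2, a mitochondrial acyl-CoA synthetase, 42.8-fold. G6pc, which releases glucose from its phosphate, stood at 3.94, 3.92 and 3.84 against 7.98, 8.20 and 10.05, with uninjured array 15 the highest. The rest were Cyp2j5, Cyp4a10, Cyp2d26, Klk1, Lmo7, Acaa1b, Hao2, Keg1, Egf and Dnase1. Of the 15, Klk1 alone was called with the tubule covariate, and the call of Cyp2d26 ended without uninjured array 15, with changes between -5.19 and -4.42 over the arrays left out. Slc27a2 and Acsm2 are among the markers averaged into that covariate, so the loss of their calls was built in. With the covariate Cyp2d26, Hao2 and Dnase1 had differences of 0.55, 0.0065 and 0.07.

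**Figure D2:**
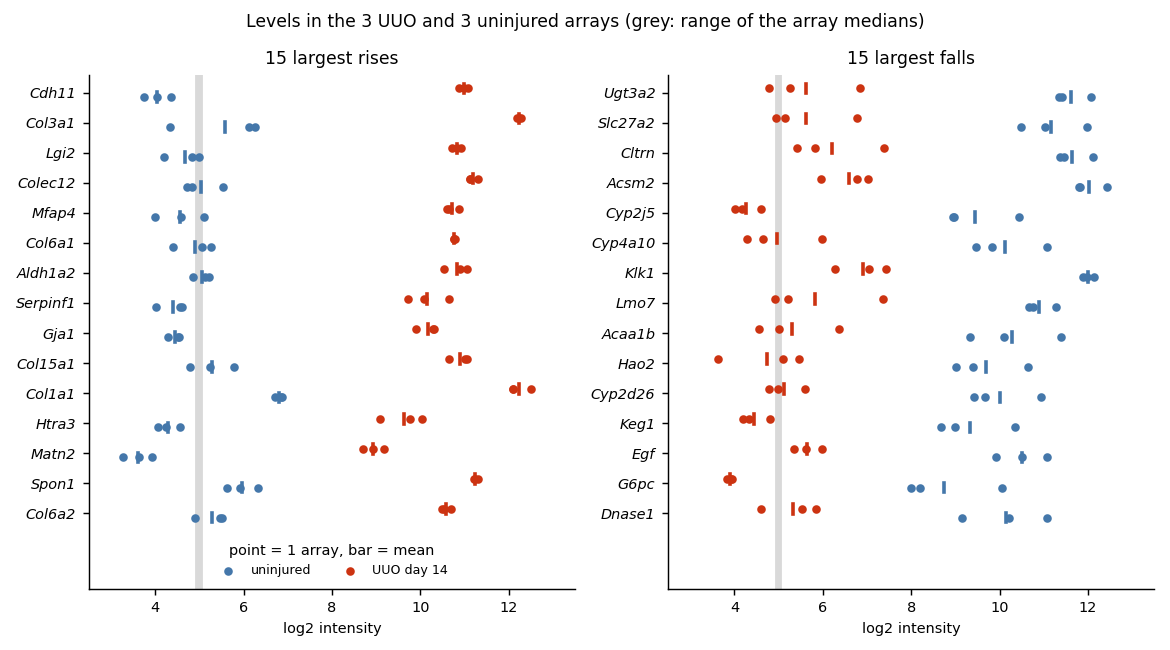
Log2 intensity (x axis) of the 15 genes with the largest called rises (left) and falls (right) in UUO; each point is 1 array, bars are group means and the grey band is the range of the array medians. The genes were drawn only from called genes whose groups did not overlap, such as Cdh11 (10.87 to 11.08 against 3.74 to 4.36) and Ugt3a2 (4.79 to 6.85 against 11.35 to 12.08).

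Fibrillar collagens, the rope-like chains of scar, rose in 7 of 10 chains tested and fell in 0 (median change 1.81), and the 7 were called with each array left out. Col3a1 stood at 12.19, 12.22 and 12.27 in UUO and at 6.11, 6.26 and 4.33 in uninjured kidney, where array 15 was the lowest. Col1a1, the main chain of type I collagen, stood at 12.50, 12.10 and 12.08 against 6.72, 6.85 and 6.86. The type V chains, which start fibrils, rose with them: Col5a1 stood at 11.37, 11.11 and 10.87 against 7.54, 6.99 and 6.35, a 17.8-fold rise (log2 4.16, SE 0.31, adjusted p = 5.14e-06), and Col5a2 rose 30.7-fold. The probe set of Col1a2, the other type I chain, was dim and rose from 3.90 ± 0.17 to 5.67 ± 0.31. Col5a3 rose by 1.84 and Col2a1 by 0.95 on the log2 scale. The covariate fit called 4 of the 10 higher.

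Network, beaded-filament and fibril-associated collagens rose in 10 of 18 and fell in 0 (median 1.61), and 7 of the 18 were higher with the tubule covariate. The 3 chains of collagen VI, which forms beaded filaments around cells, rose together. Col6a1 stood at 10.76, 10.75 and 10.78 in UUO and at 5.06, 5.26 and 4.40 in uninjured kidney. Col6a3 stood at 10.61, 10.38 and 10.24 against 6.08, 5.47 and 5.43, a 26.9-fold rise. Col15a1, which tethers fibrils to basement membrane and marks resident fibroblasts, rose 49.3-fold (log2 5.62, SE 0.32, adjusted p = 6.43e-07). Col8a2 rose by 3.19, Col14a1 by 3.42, Col8a1 by 2.32, Col16a1 by 2.22 and Col18a1 by 2.01. The call of Col12a1 (1.22) ended without UUO array 10 or uninjured arrays 13 or 15, with changes of 0.81 to 1.49 over the arrays left out.

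Basement membrane genes did not move as one (median 0.05): 7 of 16 rose, 1 fell, and 0 were called with the tubule covariate. Lama2, the laminin chain of mesenchymal cells, stood at 8.97, 8.88 and 9.01 in UUO and at 6.30, 5.79 and 5.96 in uninjured kidney (log2 2.94, SE 0.41, adjusted p = 0.00045). Perlecan (Hspg2) rose by 2.48, Col4a2 by 1.61 and the linker nidogen (Nid1) by 1.18. Col4a3, a chain of the mature glomerular and tubular membrane, stood at 6.77, 7.35 and 7.44 against 8.54, 8.69 and 9.35, 3.19-fold lower. The second probe set of Col4a3 differed by 0.06. Calls of Col4a1 (1.27), Lamb1 (1.20) and Lamc1 (1.17) each ended without 4 different arrays, uninjured array 15 among them in each case. Their lowest changes were 0.89, 1.07 and 0.93.

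Among proteoglycans, which space collagen fibrils and bind growth factors, 7 of 10 rose and 0 fell (median 2.42). Lumican (Lum) stood at 8.52, 7.75 and 7.76 in UUO and at 3.71, 3.69 and 3.81 in uninjured kidney (log2 4.27, SE 0.67, adjusted p = 0.00102). Dcn rose 26.7-fold, Prelp 16.2-fold, osteoglycin (Ogn) 10.8-fold and versican (Vcan), a large hyaluronan-binding proteoglycan, 7.78-fold. Dcn and Vcan were called with the tubule covariate (adjusted p = 0.02 and 0.015), and Lum was not (adjusted p = 0.089). Bgn rose by 1.88, and the call of Fmod (0.62) ended without UUO arrays 11 or 12 or any uninjured array (0.44 to 0.85).

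Elastic fibre and microfibril genes rose in 14 of 16 and fell in 0 (median 2.26). The list median with the tubule covariate was 2.49, with 5 called (Mfap4, Mfap5, Ltbp2, Mgp and Fbln1). Mfap4 stood at 10.64, 10.61 and 10.87 against 4.59, 5.11 and 4.00, and Mfap5, another microfibril protein, at 8.84, 9.32 and 9.21 against 4.37, 4.81 and 4.37, a 24.4-fold rise. Ltbp2, a fibrillin-binding relative of the TGF-beta binding proteins, rose 14.7-fold. Matrix Gla protein (Mgp), an inhibitor of calcification, stood at 12.46, 12.70 and 12.68 against 9.02, 9.48 and 7.65. Fbln5 rose by 3.74, Fbn2 by 3.18 and Fbln1 by 3.21, although the second probe set of Fbln1 gave -0.53. Elastin itself (Eln) rose by 1.02, a call that ended without UUO arrays 11 or 12 or any uninjured array (0.77 to 1.17), as did that of Efemp1 (2.24). That of Mfap2 (1.33) ended without UUO arrays 10 or 11 or any uninjured array (1.06 to 1.62).

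Matricellular proteins, secreted regulators that sit in the matrix, rose in 14 of 20 and fell in 0 (median 2.08), and Fn1, Thbs2 and Matn2 were higher with the tubule covariate. Smoc2, a calcium-binding matrix protein, stood at 8.01, 10.07 and 9.89 in UUO and at 4.19, 4.27 and 3.73 in uninjured kidney, with UUO array 10 the lowest of its group. Thrombospondin 2 (Thbs2) stood at 10.45, 9.20 and 8.68 against 5.37, 5.32 and 4.74, a 19.7-fold rise with array 10 the highest. Periostin (Postn) was the least even, at 11.09, 8.79 and 7.74 against 4.98, 5.15 and 4.75 (log2 4.25, SE 0.85, adjusted p = 0.00475). Fibronectin (Fn1) read 11.22, 10.59 and 10.41 against 6.13, 6.24 and 5.70, and tenascin C (Tnc) 10.45, 10.33 and 10.24 against 7.47, 6.34 and 6.59. The groups did not overlap for any of the 5. In the covariate fit Fn1 and Thbs2 were called, and Postn (adjusted p = 0.13), Tnc (0.25) and Smoc2 (0.065) were not. Tgfbi rose by 3.79, Ccn4 by 3.00, Ecm1 by 2.42, Sparc by 2.08 and Thbs4 by 1.63.

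Genes that fold, modify and crosslink collagen rose in 14 of 21 and fell in 0 (median 1.79). The lysyl oxidases, which crosslink collagen and elastin, led them. Loxl1 stood at 10.43, 9.92 and 10.79 in UUO and at 4.82, 5.56 and 6.02 in uninjured kidney, a 30.1-fold rise (log2 4.91, SE 0.45, adjusted p = 2.62e-05). Loxl2 stood at 8.49, 8.87 and 8.36 against 5.02, 4.32 and 4.87, and Lox and Loxl3 rose by 4.32 and 1.87. Serpinh1 (HSP47), the collagen chaperone, rose 9.53-fold, and Crtap, part of the prolyl 3-hydroxylase complex, 3.47-fold. Hydroxylases rose beside them: P4ha3 by 3.47, Plod1 by 2.73, Plod2 by 1.66 and Plod3 by 0.93. Cathepsin K (Ctsk), which degrades collagen, rose by 2.37, and Pcolce, which speeds removal of the propeptide, by 2.28. The covariate fit called Loxl1, Serpinh1 and Crtap.

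Matrix proteases and their inhibitors went both ways: 16 of 27 rose and 4 fell (median 1.35), and 15 of the 16 and all 4 held with each array left out. Timp1, the inducible metalloproteinase inhibitor, stood at 9.15, 9.65 and 9.61 in UUO and at 5.11, 5.14 and 5.17 in uninjured kidney. Adamts4, an aggrecanase, stood at 7.82, 8.37 and 7.73 against 4.57, 4.02 and 4.23 (log2 3.70, SE 0.38, adjusted p = 5.94e-05). Mmp23 rose by 3.41, Mmp3 by 3.04, Mmp11 by 2.90, gelatinase A (Mmp2) by 2.72 and its activator Mmp14 by 2.48. The falls were Adamts1 (-2.59), Adamts5 (-2.51), Timp3 (-1.67) and urokinase (Plau, -1.49), while tissue plasminogen activator (Plat) rose by 1.76. Timp1 and Timp3, both metalloproteinase inhibitors, moved in opposite directions. In the covariate fit Timp1, Adamts4, Mmp19 and Serpinf1 were higher and Adamts1 lower.

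Contractile and cytoskeletal genes of myofibroblasts rose in 11 of 20 and fell in 0 (median 1.20). The list of 20 also counts the cadherin Cdh11, which is not a contractile gene and is among the 11 rises. The same 20 are the contractile genes of the promoter search below. Smooth muscle actin (Acta2), the usual marker of myofibroblasts, stood at 12.15, 11.94 and 11.97 in UUO and at 8.31, 8.39 and 8.16 in uninjured kidney. It was called with the tubule covariate (log2 3.33, adjusted p = 0.002), and its second probe set was not called. Tpm4, a tropomyosin of stress fibres, stood at 10.48, 10.63 and 10.61 against 8.17, 7.94 and 6.23, an 8.73-fold rise with uninjured array 15 the lowest. Alpha-actinin 1 (Actn1), an actin crosslinker, rose 3.92-fold and vimentin (Vim) 3.10-fold, neither called with the tubule covariate, which left Acta2 and Cdh11 of this list. Enteric smooth muscle actin (Actg2) was uneven, at 7.03, 4.41 and 6.26 against 3.73, 4.01 and 3.90. Tpm2 rose by 2.35, Tpm1 by 1.91, filamin A (Flna) by 1.89 and Cnn3 by 0.99. The call of Cnn2 (1.41) ended without UUO arrays 10 or 12 or uninjured array 15 (1.05 to 1.59).

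Promoter sequences of these genes were searched because contractile genes are textbook targets of serum response factor, which binds the CArG box, and of TEAD factors. RefSeq promoter windows, from upstream of each start to just past it (build GRCm38.p6), were found for 10815 of the 13523 genes tested and for 17 of the 20 contractile genes. The CArG box was searched on both strands as CCWWWWWWGG, where W is A or T. It was in 180 of the 10815 (1.66%), in 21 of 949 genes higher in UUO, in 10 of 796 lower and in 3 of the 17 contractile genes, namely Cnn2, Myl9 and Myl6. The last 2 were not called (0.41 and 0.16). Near matches were not counted, such as CCCTATATGG in the Acta2 window, where a C takes the place of the first W. Egr2, a named gene that rose, also holds the box and is not shown. The windows with the box in capitals are shown to compare the contractile genes with Lama2, which rose and holds the same motif. They lie at chr10:79988519-79988578 (plus strand, Cnn2), chr2:156775278-156775337 (plus, Myl9), chr10:128493025-128493084 (minus, Myl6) and chr10:27616947-27617006 (minus, Lama2), each 5′ to 3′.
Cnn2: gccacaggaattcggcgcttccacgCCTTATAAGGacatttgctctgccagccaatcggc
Myl9: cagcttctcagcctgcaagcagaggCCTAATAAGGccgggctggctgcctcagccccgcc
Myl6: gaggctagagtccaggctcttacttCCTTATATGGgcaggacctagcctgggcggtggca
Lama2: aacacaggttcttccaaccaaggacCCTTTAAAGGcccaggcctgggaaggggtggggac

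The TEAD motif, CATTCC, was searched on both strands. It was common, in 1667 of the 10815 genes (15.4%), in 154 of 949 higher in UUO and in 125 of 796 lower. It was in 6 of the 17 contractile genes: Acta2, Tpm1, Flna, Lmod1, Cald1 and Mylk. The windows of the 3 of these that rose, and of Col3a1, Col6a2 and Timp1 as matrix genes that rose, are shown with the motif in capitals. They lie at chr19:34255489-34255544 (minus, Acta2), chr9:67049239-67049294 (minus, Tpm1), chrX:74246650-74246705 (minus, Flna), chr1:45311345-45311400 (plus, Col3a1), chr10:76623489-76623544 (minus, Col6a2) and chrX:20869916-20869949 (plus, Timp1). In Acta2, Tpm1 and Timp1 the capitals are the motif as read from the opposite strand. A match is a description of the letters in the window, not a site or a cause. The CArG and TEAD matches printed here belong to different genes.
Acta2: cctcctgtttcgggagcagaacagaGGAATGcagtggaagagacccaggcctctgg
Tpm1: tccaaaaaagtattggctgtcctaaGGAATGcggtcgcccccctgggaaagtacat
Flna: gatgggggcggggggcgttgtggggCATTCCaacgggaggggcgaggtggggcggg
Col3a1: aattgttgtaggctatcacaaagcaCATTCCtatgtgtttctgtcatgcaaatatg
Col6a2: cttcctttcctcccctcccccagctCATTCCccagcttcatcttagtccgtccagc
Timp1: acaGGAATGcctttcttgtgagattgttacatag

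Integrin and focal adhesion genes split: 8 of 27 rose and 5 fell (median 0.49). Fblim1, an adapter that links filamin to adhesions, stood at 10.35, 10.46 and 10.35 in UUO and at 6.75, 6.23 and 5.77 in uninjured kidney, a 17.6-fold rise (log2 4.13, SE 0.29, adjusted p = 4.03e-06). Itgb5, a vitronectin receptor chain, rose 5.73-fold, the collagen receptor Ddr2 3.41-fold and the integrin-linked adapter Parva 2.91-fold. Itga4, a chain that binds fibronectin and VCAM1, fell to 6.12, 5.85 and 5.75 from 8.78, 8.20 and 7.77, 5.08-fold lower. The laminin receptor chain Itga6 was 2.83-fold lower. Of the 13 calls 6 held with each array left out (4 higher, 2 lower); the other 7, such as Itga8 (-1.82, from -2.12 to -1.60) and Itgb6 (-1.83, from -2.09 to -1.62), each ended without UUO array 12 or uninjured array 14 and others. In the covariate fit Fblim1 and Parva were higher and Itga4 lower.

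**Figure D3:**
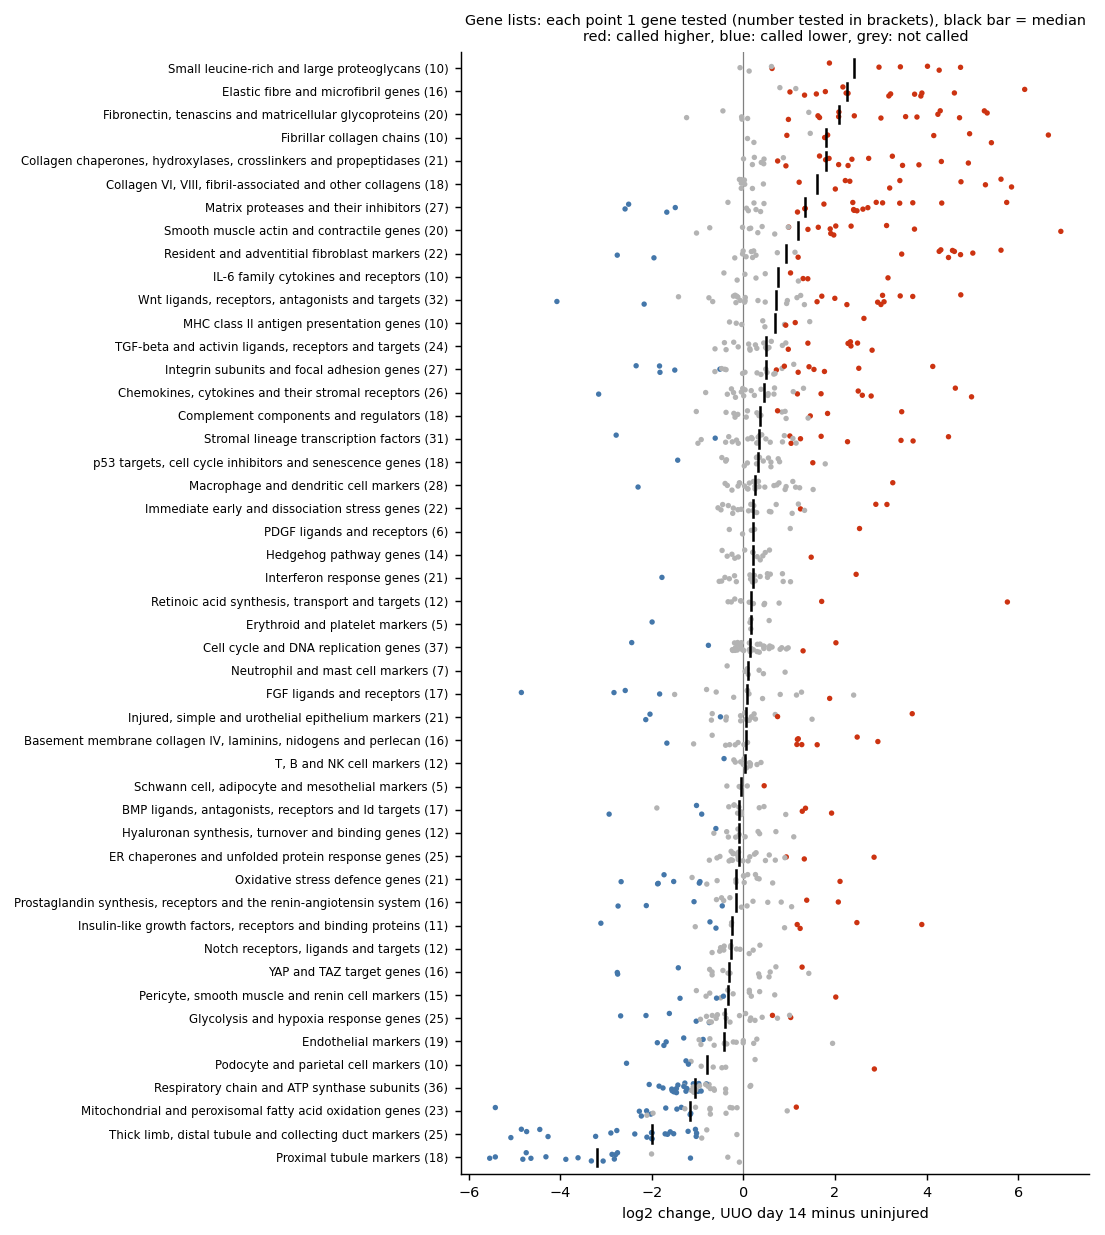
Log2 change (x axis, UUO minus uninjured) of every tested member of the 48 gene lists (y axis, number tested in brackets); red points were called higher, blue points lower, grey points were not called, and black bars are list medians. Matrix lists had medians up to 2.42 (proteoglycans), and proximal tubule markers had the lowest median (-3.19).

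TGF-beta drives myofibroblasts through its receptors and SMAD proteins, and activin acts through a parallel pair of receptors. In this family 7 of 24 rose and 0 fell (median 0.50), and the 7 held with each array left out. The ligand gene Inhba, which encodes activin A, stood at 8.52, 8.44 and 8.59 in UUO and at 5.55, 5.84 and 5.74 in uninjured kidney, a 7.01-fold rise (log2 2.81, SE 0.32, adjusted p = 0.000138). The receptors Tgfbr1 and Tgfbr2 rose by 2.35 and 1.41, the common mediator Smad4 by 0.98 and the SMAD repressor Skil, itself a target, by 2.34. The latent complex protein Ltbp1 rose by 2.28, although its second probe set gave -0.16, and the secreted Fstl1 by 2.49. With the tubule covariate 0 of the 24 were higher and 1, the coreceptor Tgfbr3, was lower.

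The related BMP genes, which oppose TGF-beta in many settings, rose in 3 of 17 and fell in 3 (median -0.10). That was 17.6% each way, against 9.07% higher and 7.52% lower of all genes tested. Bmp7, a tubule-made ligand, stood at 5.93, 5.65 and 5.74 against 6.63, 7.12 and 6.66, 2.04-fold lower. The antagonist Sostdc1 was 7.64-fold lower. The receptor Bmpr1b rose by 1.35 and the target Id3 by 1.92, while the target Id2 fell by 0.91. Calls of Id2 and of the pseudoreceptor Bambi (1.28) ended without single arrays, for Bambi UUO array 12 or uninjured array 15 (1.09 to 1.48 over the arrays left out) and for Id2 UUO arrays 10 or 11 or uninjured arrays 14 or 15 (-1.12 to -0.57).

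Among 6 PDGF ligands and receptors 1 was called (16.7%, against 16.6% of all genes tested). The receptor-like Pdgfrl rose from 5.57, 5.49 and 5.27 to 8.04, 7.95 and 7.96 (log2 2.53, SE 0.26, adjusted p = 5.95e-05). It was also higher than at folic acid day 14 and day 3. Wnt pathway genes rose in 11 of 32 and fell in 2 (median 0.71). Of the ligands, Wnt5a stood at 8.02, 8.77 and 7.80 in UUO and at 4.58, 4.53 and 4.39 in uninjured kidney, and Wnt4 rose by 3.42. Its receptors and co-receptors moved the same way (Fzd2 by 3.04, Fzd1 by 2.00, Ror2 by 1.71). The secreted antagonists were divided: Frzb stood at 9.09, 10.01 and 9.53 against 5.34, 4.40 and 4.65, and Sfrp1 and Dkk3 rose by 2.93 and 3.07. Sfrp2 fell to 8.80, 6.98 and 8.37 from 12.44, 12.20 and 11.74, 16.9-fold lower (log2 -4.08, SE 0.58, adjusted p = 0.00051), and Dkk2 fell by 2.17. Nkd2, an intracellular inhibitor, rose 4.79-fold and was the Wnt gene called higher with the tubule covariate (adjusted p = 0.035), and Dkk2 was called lower (adjusted p = 0.038).

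Hedgehog genes had 1 call of 14 (7.14%, against 16.6% of all genes tested). The call was the co-receptor Cdon, at 5.03, 6.57 and 7.08 against 4.77, 4.69 and 4.78. It ended without UUO arrays 11 or 12 or uninjured array 14 (1.05 to 2.08). Of 16 genes listed as YAP and TAZ targets 1 was higher (Tead2, itself a TEAD factor, 2.43-fold) and 3 were lower. Those were the ectonucleotidase Nt5e, a marker of cortical fibroblasts, 6.76-fold lower, Wwc1, 6.72-fold lower, and Dlc1 (-1.42), whose call ended without UUO array 10 or uninjured arrays 13 or 14 (-1.68 to -1.26). Of 12 Notch genes limma called 0, with 3 at an unadjusted p under 0.05. The lowest p belonged to Nrarp (-0.69, adjusted p = 0.12) and Notch1 (-0.52, adjusted p = 0.138).

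Insulin-like growth factor binding proteins, which hold IGF in the matrix, moved against one another. Igfbp3 stood at 10.98, 9.41 and 9.10 in UUO and at 5.89, 6.92 and 4.99 in uninjured kidney, a 14.9-fold rise, and Igfbp2 rose 5.57-fold. Igfbp5 stood at 6.78, 8.26 and 8.52 against 11.31, 11.20 and 10.38, 8.66-fold lower (log2 -3.11, SE 0.59, adjusted p = 0.00355), and was called with the tubule covariate (-4.40, adjusted p = 0.038), as was Igfbp2 (2.73, adjusted p = 0.0285). Igfbp6 rose by 1.17 and Igfbp4 fell by 0.73. In the list of 11, 4 rose and 3 fell, of which Igf1 (1.24, from 1.14 to 1.35) ended without UUO arrays 11 or 12 or uninjured arrays 13 or 15, and Igfals (-0.60, from -0.75 to -0.46) without any UUO array or uninjured arrays 14 or 15.

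Fibroblast growth factor and EGF genes mostly fell among those called (1 higher and 4 lower of 17). The receptor Fgfr1, used by mesenchymal cells, rose 3.69-fold, at 8.26, 8.11 and 7.61 against 5.77, 6.32 and 6.23. Fgfr2, an epithelial receptor, fell 5.99-fold, the ligands Fgf9 and Fgf1 7.10-fold and 3.56-fold, and Egf, made by the thick limb and distal tubule, 28.9-fold. Fgf1 was called with the tubule covariate (adjusted p = 0.033), and the others of these were not. Among 12 retinoid genes Aldh1a2 and the retinoid-induced chemoattractant Rarres2 (1.71) rose. The call of Rarres2 ended without UUO arrays 11 or 12 or uninjured arrays 14 or 15 (1.29 to 2.09). The covariate fit called Aldh1a2 and Rdh10.

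Inflammatory mediators of stroma rose in part. In the chemokine and cytokine list 7 of 26 rose and 1 fell (median 0.46). Cxcl14, an epithelial and stromal chemokine, stood at 9.34, 10.79 and 10.17 in UUO and at 5.19, 4.92 and 5.24 in uninjured kidney, a 31.6-fold rise. The alarmin Il33 stood at 8.19, 8.34 and 9.04 against 3.82, 3.79 and 4.07 (log2 4.63, SE 0.43, adjusted p = 2.73e-05), and was called with the tubule covariate. Cx3cl1 rose 6.04-fold, Cxcl16 5.68-fold and Cxcl12, the ligand of CXCR4, by 2.79. Cxcl13, which attracts B cells, fell to 5.30, 5.81 and 5.52 from 9.45, 8.90 and 7.75, 8.96-fold lower, and stayed called with the covariate (-3.50, adjusted p = 0.04). Ccl2, the monocyte chemoattractant, did not differ beyond its spread, at 6.32, 5.85 and 5.27 against 4.82, 5.46 and 5.54 (adjusted p = 0.605). Ccl19 rose by 1.69, and the call of Csf1 (1.18) ended without UUO arrays 10 or 11 or any uninjured array (0.73 to 1.54).

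The oncostatin M receptor (Osmr) led the IL-6 family, in which 4 of 10 rose and 0 fell (median 0.75). It stood at 9.80, 10.28 and 9.34 in UUO and at 7.49, 6.76 and 5.70 in uninjured kidney, an 8.92-fold rise (adjusted p = 0.00508). The transcription factor Stat3 rose 2.04-fold, at 9.00, 9.20 and 9.33 against 8.24, 8.07 and 8.13. The shared receptor chain Il6st (1.30) and Lifr (1.41) were called, but each call ended without UUO arrays 10 or 11 or uninjured arrays 14 or 15, and that of Il6st also without UUO array 12 (0.99 to 1.55 for Il6st, 1.28 to 1.63 for Lifr). With the tubule covariate 0 of the 10 were called, and Il6st then stood at -0.02.

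In complement 4 of 18 rose and 0 fell. Serping1, the C1 inhibitor, stood at 10.94, 11.11 and 11.10 against 8.24, 7.46 and 7.09, an 11.0-fold rise that held with the tubule covariate (adjusted p = 0.021). Calls of C1ra (1.84), C1s1 (1.46) and clusterin (Clu, 0.74) ended without UUO array 12 and, for C1ra and C1s1, without UUO array 11 or uninjured array 15, for C1ra and Clu also without uninjured arrays 13 or 14. Their lowest changes were 1.45, 1.11 and 0.62. Interferon response genes had 2 calls of 21: the GTPase Gbp2 rose 5.50-fold, and Rsad2, an antiviral enzyme, fell 3.44-fold. Both were called with the tubule covariate. The second probe set of Rsad2 gave 0.08.

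MHC class II genes, which present antigen, rose in 3 of 10 and fell in 0 (median 0.68). H2-Aa stood at 8.99, 9.09 and 9.64 in UUO and at 6.45, 6.57 and 6.81 in uninjured kidney (log2 2.63, SE 0.17, adjusted p = 2.05e-06), and the call held with both the tubule and the macrophage covariate (adjusted p = 0.0027 with the tubule one). The second probe set of H2-Aa was not called. H2-Eb1 stood at 7.45, 7.64 and 7.61 against 6.60, 6.72 and 6.61. The invariant chain Cd74 (1.13) lost its call without UUO arrays 10 or 11 or uninjured arrays 13 or 15 (0.82 to 1.48). The same 3 genes were lower in UUO than at folic acid day 14 (H2-Aa by 1.78, H2-Eb1 by 2.62, Cd74 by 2.84) and higher than at day 3 (by 2.05, 1.29 and 1.71). The mean of 28 macrophage and dendritic cell markers was 5.54, 5.55 and 5.76 in UUO, 5.20, 5.23 and 5.24 in uninjured kidney and 7.60, 6.47 and 7.78 at folic acid day 14. At day 3, when the class II genes were lower than in UUO, it was 5.64, 5.87 and 5.91 and overlapped UUO. The part of macrophages in the class II result beyond the covariate was not tested.

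Stromal transcription factors rose in 8 of 31 and fell in 2 (median 0.35). Tcf21, a factor of kidney stroma and mesenchyme, stood at 9.25, 10.59 and 10.54 in UUO and at 5.48, 6.02 and 5.45 in uninjured kidney, a 22.3-fold rise (log2 4.48, SE 0.45, adjusted p = 4.92e-05). Sox4 stood at 9.74, 9.62 and 9.74 against 6.47, 6.45 and 5.86, a 10.9-fold rise, and both were called with the tubule covariate. Runx1 rose 13.0-fold, with UUO array 11 (7.00) under the other 2 (9.31 and 8.59). Prrx1, a mesenchymal factor, rose 4.83-fold and Snai2, a repressor of cadherins, 3.24-fold. Gata3 fell by 2.78. The other 4 calls (Egr1, Nr2f2 and Twist1 higher, Meox1 lower) each ended without uninjured array 14 and 1 or more others; their changes over the arrays left out ran from 0.81 to 1.67, 0.85 to 1.21, 0.80 to 1.32 and -0.71 to -0.51. Among immediate early genes, which also respond to cell isolation, 3 of 22 were higher (13.6%, against 9.07% of all genes tested) and 0 lower. Egr2 rose 8.77-fold, at 8.91, 9.16 and 8.59 against 5.71, 6.01 and 5.54, and Fosl2 7.42-fold.

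Proliferation genes were mostly uncalled, as were the genes tested as a whole. Of 37 cell cycle genes 2 rose and 2 fell (median 0.15), 5.41% each against 9.07% and 7.52% of all genes tested. Mki67, present in dividing cells, stood at 8.43, 5.81 and 5.60 in UUO and at 6.53, 6.13 and 6.09 in uninjured kidney (adjusted p = 0.798), so that UUO array 10 alone was high. Cyclin D1 (Ccnd1), which opens the cell cycle, fell to 5.89, 6.09 and 6.07 from 8.60, 8.52 and 8.25, 5.43-fold lower (log2 -2.44, SE 0.18, adjusted p = 4.57e-06), and was called with the tubule covariate (adjusted p = 0.0052). Rrm2, a subunit of ribonucleotide reductase, rose 4.05-fold. Calls of Cenpa (1.30, at the lowest 1.12) and Foxm1 (-0.77, from -0.84 to -0.68) ended without uninjured array 14 or 15 and others, for Foxm1 without any array. The inhibitor Cdkn1b rose 2.86-fold, at 8.95, 9.17 and 8.59 against 7.61, 7.13 and 7.44. In that list of 18 the 1 fall was the p53 target Mdm2 (-1.44), which ended without UUO arrays 11 or 12 or any uninjured array (-1.65 to -1.30). It was lower in the covariate fit, as was Ccnd1 of the cell cycle list, where Mcm6 was higher.

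Of 36 subunits of the respiratory chain and ATP synthase, 18 were lower and 0 higher (median -1.06), and 30 had an unadjusted p under 0.05. Sdha, the catalytic subunit of complex II, stood at 9.25, 9.61 and 9.55 in UUO and at 11.14, 11.22 and 11.58 in uninjured kidney, 3.59-fold lower (log2 -1.84, SE 0.24, adjusted p = 0.000318). Uqcrfs1 of complex III was 4.17-fold lower, Atp5a1 of the ATP synthase 2.76-fold and Ndufa5 of complex I 2.43-fold. With each array left out 9 of the 18 were called every time, and with the tubule covariate 0 were called and the median was -0.06.

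Fatty acid oxidation genes fell in 10 of 23, and 1 rose (median -1.17). Etfa, the electron carrier of the pathway, stood at 8.29, 7.99 and 7.80 against 9.96, 10.16 and 10.79, 4.84-fold lower. Hadhb of the trifunctional protein was 2.74-fold lower, Hsd17b4, a peroxisomal enzyme, 2.56-fold and Acadvl 2.24-fold, while Acadm and the regulator Ppara fell by 2.12 and 2.23. The call of Ppara ended without UUO arrays 10 or 11 or uninjured array 15 (-2.74 to -1.95). With each array left out 5 of the 10 falls held every time. The calls of Acadm and Hadh ended without UUO array 10 or uninjured array 15 (from -2.33 to -1.83 and from -1.87 to -1.44). With the covariate Cpt2 and Slc25a20 were higher, 0 were lower and the median was 0.42. The tubule markers given above moved with both lists.

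Glycolysis and hypoxia genes had 2 of 25 higher and 5 lower (median -0.41). Gapdh stood at 11.10, 11.47 and 10.80 in UUO and at 12.09, 12.16 and 12.22 in uninjured kidney, 2.05-fold lower, and Aldoa was 1.68-fold and Ndrg1, a hypoxia target, 6.42-fold lower. Hif1a rose by 1.03, a call that ended without UUO arrays 10 or 12 or any uninjured array (0.84 to 1.20), and its second probe set gave -0.48. Ldha (0.63), Pdk1 (-2.13) and Epas1 (-1.62) also lost their calls with single arrays left out, Epas1 with any of the 6, its lowest change being -1.80. Of the oxidative stress genes, metallothionein 1 (Mt1) rose 4.31-fold, at 10.64, 11.10 and 11.35 against 8.73, 9.13 and 8.89, with -0.16 in its second probe set. The other 7 calls among 21 were falls, led by Gsta4 (6.37-fold lower), and with an array left out Gsta4 alone kept its call in each fit. The call of Gpx3 (-0.96) ended without UUO array 12 only (-1.08 to -0.81).

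Of 25 genes of the unfolded protein response 3 rose (12%, against 9.07% of all genes tested) and 0 fell. Creb3l1, a factor that drives collagen secretion, stood at 9.00, 7.57 and 9.48 against 5.71, 5.81 and 5.97, a 7.22-fold rise. Xbp1 (1.33) overlapped between the groups, at 7.64, 9.59 and 8.59 against 7.69, 7.26 and 6.88, and its call ended without UUO arrays 11 or 12 or any uninjured array (0.84 to 1.81). Atf4 (0.94) lost its call without UUO arrays 11 or 12 or uninjured arrays 14 or 15 (0.76 to 1.22). In the list of prostaglandin and renin-angiotensin genes 2 of 16 rose and 4 fell. The angiotensin receptor Agtr1a stood at 6.73, 6.51 and 6.72 in UUO and at 9.89, 9.42 and 8.86 in uninjured kidney, 6.68-fold lower (log2 -2.74, SE 0.25, adjusted p = 2.16e-05), and fell also with the tubule covariate (-3.36, adjusted p = 0.0016). Prostacyclin synthase (Ptgis) rose 4.20-fold. The type 2 angiotensin receptor Agtr2 (1.38) and the 3 other falls, Ptger3 (-2.12), Ptgfr (-1.08) and Tbxas1 (-0.46), lost their calls without 5 of the 6 arrays in turn. Hyaluronan genes had 1 call of 12, Cemip (-0.60), which the mean of its probe sets reversed (0.09) and which ended without UUO arrays 11 or 12 or uninjured arrays 13 or 14 (-0.81 to -0.48).

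Markers of the cells themselves were not uniform. Of 22 resident and adventitial fibroblast markers 10 rose and 2 fell (median 0.93), and with the tubule covariate 6 rose and 0 fell. Thy1, a surface glycoprotein of fibroblasts, stood at 9.99, 10.04 and 10.02 in UUO and at 4.86, 5.02 and 5.14 in uninjured kidney, a 32.2-fold rise. The opioid precursor Penk, a marker of medullary stroma, and dermatopontin (Dpt) rose by 4.56 and 4.31. Nt5e, described above, and Cd34 (-1.96) fell, Cd34 losing its call without UUO array 12 or uninjured arrays 13 or 14 (-2.37 to -1.53). Pericyte, smooth muscle and renin cell markers had 1 higher of 15, Actg2, and 3 lower: Rgs5, Gja4 and Higd1b. Rgs5 read 8.78, 8.59 and 9.01 against 10.32, 10.15 and 10.07, a fall of 1.39 that ended without UUO arrays 10 or 11 or any uninjured array (-1.49 to -1.28), and the other 2 (-0.59 and -0.44) likewise ended without 5 and 6 of the arrays.

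Epithelial markers made up the largest falls by list. Of 18 proximal tubule markers 15 fell and 0 rose (median -3.19), 9 of them with each array left out. Slc5a12, a lactate transporter, stood at 5.10, 4.82 and 4.89 in UUO and at 9.00, 9.11 and 10.93 in uninjured kidney, and the endocytic receptor Cubn at 5.88, 5.83 and 5.30 against 8.52, 8.75 and 9.72. Of 25 thick limb, distal and collecting duct markers 22 fell and 0 rose (median -2.00), 17 of them with each array left out. Slc12a3, the thiazide-sensitive transporter, stood at 5.13, 4.51 and 4.45 against 9.11, 9.81 and 9.39, 26.6-fold lower, and Klk1, a kallikrein of the connecting tubule, at 7.42, 7.05 and 6.28 against 11.87, 11.99 and 12.13. Slc12a3, Klk1 and the water channel Aqp3 were the 3 markers lower also with the tubule covariate (adjusted p = 0.019, 0.023 and 0.04).

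Injured epithelium markers were mostly uncalled, as were the genes tested as a whole. Of 21 markers of injured, simple and urothelial epithelium 2 rose and 3 fell (median 0.06). These were 9.52% and 14.3%, against 9.07% and 7.52% of all genes tested. The rises were Lcn2 and Clu, whose call, as given above, ended without single arrays. Lcn2, a secreted protein of stressed epithelium, stood at 7.36, 7.71 and 8.21 in UUO and at 4.16, 4.07 and 3.99 in uninjured kidney, a rise (adjusted p = 0.00179) that was not called with the tubule covariate (adjusted p = 0.29). Havcr1 (KIM-1), the marker of injured proximal tubule, read 7.30, 5.47 and 6.09 against 4.95, 4.77 and 4.64, without overlap but not called (adjusted p = 0.262). Mal fell 4.12-fold. Calls of Cdh1 (-2.13, from -2.60 to -1.85) and Upk3a (-0.50, from -0.56 to -0.45) ended without UUO array 11 or uninjured array 14 and 1 other array each.

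Podocyte and parietal cell markers gave 3 falls and 1 rise among 10. Podocalyxin (Podxl) stood at 7.14, 7.17 and 6.48 against 9.69, 9.42 and 9.35, 5.87-fold lower, and nephrin (Nphs1) 2.39-fold lower, both also with the tubule covariate (adjusted p = 0.018 each). Ncam1, an adhesion molecule that stroma also carries, rose 7.25-fold. Endothelial markers fell in 5 of 19 and rose in 0 (median -0.42). Sox17 stood at 4.45, 4.94 and 5.09 against 6.88, 6.57 and 6.23, 3.34-fold lower, and the angiopoietin receptor Tek was 3.68-fold lower. Calls of Kdr (-0.88), Esam (-1.30) and Plvap (-1.69) ended without uninjured arrays 13 or 14 and 2 UUO arrays each, and their lowest changes over the arrays left out were -1.06, -1.53 and -2.17. The covariate fit called Cdh5, Kdr and Tek lower.

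Blood cell markers were mostly uncalled, as were the genes tested as a whole, of which 16.6% were called. Of 28 macrophage and dendritic cell markers lysozyme (Lyz2) rose, at 7.30, 7.93 and 7.57 against 3.17, 3.96 and 5.90 (log2 3.26, SE 0.51, adjusted p = 0.000987). The mannose receptor Mrc1 (-2.30) fell in a call that ended without any UUO array or uninjured arrays 13 or 14 (-2.78 to -1.86) and that the covariate fit kept. Of 12 T, B and NK cell markers 1 was called, Cd3d (-0.42), which ended without any UUO array or uninjured arrays 13 or 14 (-0.52 to -0.34). Neutrophil and mast cell markers gave 0 limma calls of 7, with 1 at an unadjusted p under 0.05: S100a9 stood at 6.74 ± 0.58 against 5.83 ± 0.23 and Ltf at 5.84 ± 0.11 against 6.20 ± 0.12. Of 5 erythroid genes Slc4a1 was lower (-2.00), a gene that intercalated cells of the collecting duct also carry, and of 5 Schwann cell, adipocyte and mesothelial markers Krt14 was higher (0.45), which ended without UUO arrays 11 or 12 or any uninjured array (0.34 to 0.54).

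**Figure D4:**
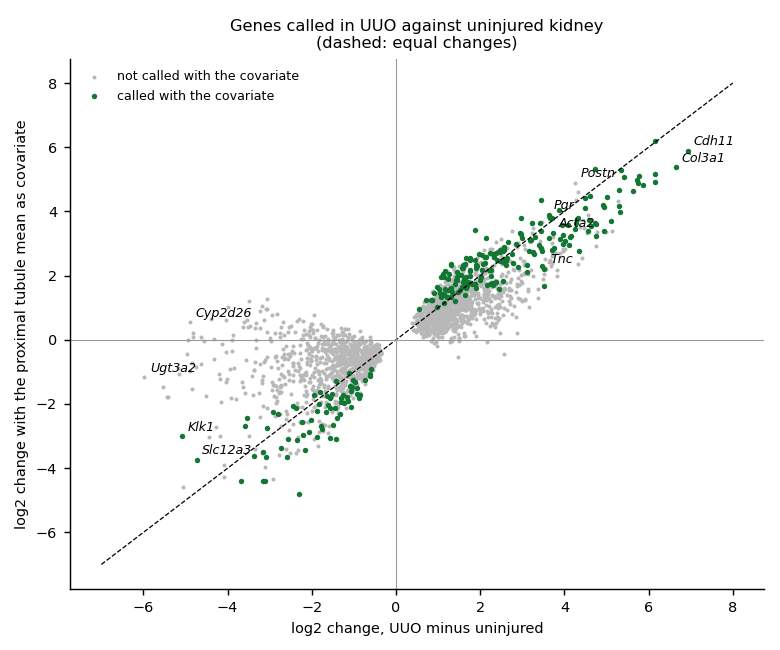
Log2 change, UUO minus uninjured, of the 2244 called genes in the fit without covariate (x axis) and with the proximal tubule mean of each array as covariate (y axis); green points were also called with the covariate and the dashed line marks equal changes. Cdh11 was at 6.93 without and 5.89 with the covariate and Col3a1 at 6.66 and 5.37, while Ugt3a2 was at -5.98 and -1.17.

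Differences of UUO from the folic acid groups were tested by their own contrasts. Against folic acid day 14, the same interval after injury, 410 genes (3.03%) were called, 173 higher (1.28%) and 237 lower (1.75%). The count fell to 163 without UUO array 11 and rose to 698 without day 14 array 9. Among the genes that had risen against uninjured kidney, Lox (by 3.21), Lum (by 3.16), P4ha3, Frzb, Wnt5a, Loxl2, Vcan, Col6a3, Thbs2 and Dcn were also higher in UUO than at folic acid day 14, and Acta2 was higher by 1.31 (adjusted p = 0.012). The lower genes included 17 of 25 distal nephron markers, 6 of 18 proximal tubule markers and 11 of 28 macrophage markers. Tubule and macrophage means were higher at folic acid day 14 (proximal tubule 9.06, 9.02 and 6.95), and with the tubule covariate 16 genes were called, 2 higher and 14 lower. Most of the 173 higher calls were thus lost in that fit. Fitted to the 6 arrays compared alone, 94 were called, 25 higher and 69 lower.

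Fewer genes separated UUO from the earlier folic acid groups. Against day 7, 37 genes (0.274%) were called, and with the arrays compared alone 0 were called by limma, while 13 were called without UUO array 11 and 108 without day 7 array 6. Those lower in UUO than at folic acid day 7 included the macrophage genes Ctss, Tyrobp, Ly86 and Lyz2 and the class II genes H2-Ab1, H2-Eb1 and H2-Aa. Against day 3, 153 genes (1.13%) were called, and 94 without day 3 array 2. Gja1 (by 4.97), Lum (by 3.85), Fap (by 3.44), Mfap4 (by 3.21) and Runx1 (by 3.30) were higher in UUO, and Lrrn1 (-4.80), Aldh1a1 (-3.92) and Agtr1a (-2.24) were lower.

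In all, 13 genes (0.0961%) differed in the same direction from uninjured kidney and from all 3 folic acid groups, 11 higher in UUO and 2 lower. These contrasts share the UUO arrays, and each is given by its own values. The progesterone receptor gene (Pgr) stood at 7.22, 8.66 and 7.74 in UUO, at 4.42, 4.07 and 4.26 in uninjured kidney, and between 3.88 and 5.26 in the 9 folic acid arrays. UUO was higher by 3.63 than uninjured kidney (SE 0.30, adjusted p = 1.52e-05) and by 3.53, 3.03 and 3.82 than day 14, day 7 and day 3 (adjusted p = 0.00032, 0.0021 and 0.00013). The oxytocin receptor gene (Oxtr) showed the same step, at 6.57, 6.73 and 7.97 in UUO and between 4.50 and 4.98 in the other 12 arrays. Mc2r, the ACTH receptor, stood at 4.72, 4.89 and 4.93 and between 3.20 and 3.96 elsewhere. It was dim throughout: under the array median in every UUO array, under the 40th percentile in the other 12, and so tested only through the group where it was high. It was not tested at all with the filter at the 60th percentile. Levels of the female transcript Xist (8.53 to 10.6) and of the Y-linked Uty (3.30 to 3.63) showed no split among the 15 arrays, for which the labels give no sex.

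Connexin 43 (Gja1), by contrast, was graded. It stood at 9.90, 10.30 and 10.29 in UUO, at 7.93, 7.32 and 7.62 at folic acid day 7, at 6.79, 6.99 and 8.42 at day 14, at 4.53, 6.32 and 4.73 at day 3 and at 4.52, 4.29 and 4.55 in uninjured kidney. Inhba, Pamr1, Meis1 and Igfbp2 were likewise highest in each UUO array, with Igfbp2 at 8.49, 8.09 and 7.65 against at most 7.12 in the other arrays. Meis1, a homeobox factor, stood at 7.73, 7.70 and 7.84 against 5.48, 5.45 and 5.47 in uninjured kidney. Cfhr2, Tafa5 and Cpxm2 completed the 11, and Meis1, Tafa5 and Cpxm2 fall outside the naming rule and were named after their values were seen. The 2 lower genes were Klk1 and Atp1b1, the beta subunit of the sodium pump, which stood at 9.51, 8.45 and 8.65 in UUO, at 12.46, 12.50 and 12.42 in uninjured kidney and between 10.06 and 11.59 after folic acid. Pgr was called against all 4 groups with each of the 15 arrays left out in turn and with the tubule covariate. It was not among the genes set apart with the macrophage covariate, with the second probe set or with only the arrays compared. The number of genes set apart fell to 5 without uninjured array 13 or 14, to 6 without 15 and to 7 without UUO array 11 or folic acid day 7 array 4.

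**Figure D5:**
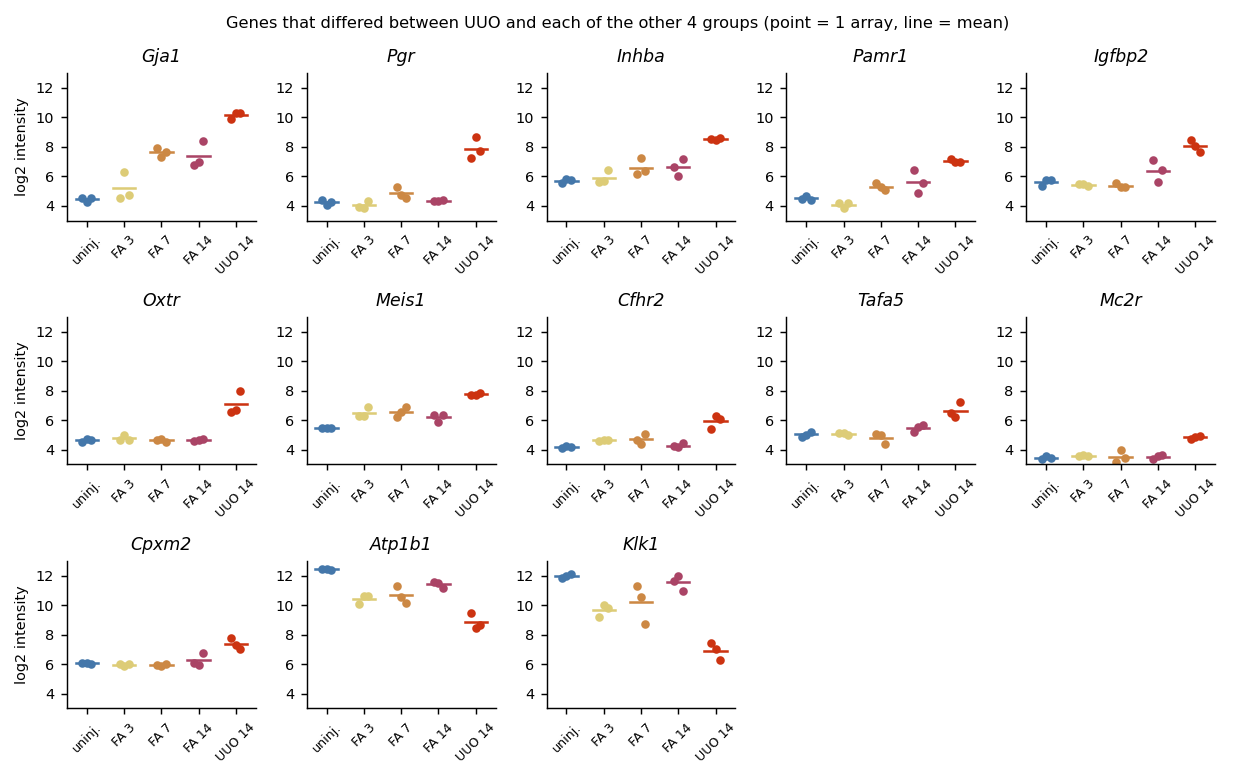
Log2 intensity (y axis) of the 13 genes that differed between UUO and each of the other 4 groups (x axis: uninjured, folic acid day 3, 7 and 14, UUO day 14); points are arrays and lines are group means. Pgr and Oxtr were raised in the UUO arrays, group means of Gja1 ranged from 4.45 in uninjured kidney to 10.16 in UUO, and Atp1b1 and Klk1 were lowest in UUO.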

How the data were processed

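RNA of PDGFRa-positive cells sorted from mouse kidney was amplified and hybridised to 15 one-colour arrays, 3 in each of 5 groups. The values deposited by the authors are log2 intensities. The submitters' processing notes list RMA, affy and limma, with no version given. RMA corrects background, equalises the distributions of the arrays and summarises probes, so a shift shared by all genes cannot be seen, and brightness sets the precision because arrays have no read depth. Genes were named through the platform annotation, and where a gene had several probe sets its brightest on average was used. A gene was tested when it exceeded its array's 40th percentile in at least 3 arrays. Group means of all 5 groups were estimated together in limma 3.58.1 (lmFit, eBayes; R 4.3.3), with Benjamini-Hochberg adjustment over the genes tested in each of 4 contrasts. The steps were tested on simulated data: for UUO against uninjured kidney with 13523 genes, 48% of changes of log2 1 and 81% of log2 2 were recovered, with 8 false calls. In the simulation few genes were changed, in the UUO arrays alone, and noise was drawn independently for each gene. The data had many more calls and a tubule signal shared by many genes, so these rates do not carry over to them.

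The genes named are the 15 highest and 15 lowest called without overlap, up to 8 set apart from every group in each direction, up to 5 called members of each of 48 lists with the smallest p (2 where none was called) and a short set of marker genes always named. Other list members were named after their values were seen. Lists, members and tests were chosen with earlier results of these data known. Alternatives covered scaling, the filter, the choice of probe set, weights, covariates, thresholds and each array left out. Protein sequences were not used here.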

Additional observations from a re-analysis of the deposited data

Results flagged for a closer look

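The 13 genes below differed between UUO and each of the other 4 groups, each difference tested in the same limma fit. Their log2 differences from folic acid day 14 were 3.53 for Pgr, 2.76 for Gja1, 2.44 for Oxtr, 1.90 for Inhba, 1.69 for Igfbp2, 1.65 for Cfhr2, 1.56 for Meis1, 1.46 for Pamr1, 1.33 for Mc2r, 1.16 for Tafa5 and 1.11 for Cpxm2. Klk1 and Atp1b1 were lower, by -4.64 and -2.56. At an adjusted p under 0.01 in every contrast 3 of them remained: Pgr, Oxtr and Mc2r. Mc2r was tested only through the UUO arrays, where it lay under the array medians, and drops out with the filter at the 60th percentile.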

How the results depend on the processing

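Against uninjured kidney 2244 genes were called. The count was 3471 with array weights, 306 with the tubule covariate, 1128 at an adjusted p under 0.01 and 1495 to 1819 with 1 array left out. Of the calls, 1227 were higher and 1017 lower, against 1193 and 1277 with quantile normalization and 1340 and 823 with median centring. Against folic acid day 14 the 410 calls became 94 with only the arrays compared, 16 with the tubule covariate, 79 at 0.01 and 163 to 698 with 1 array left out. Against day 7 the 37 calls became 0 with only the arrays compared, 23 with the second probe set, 17 with the macrophage covariate, 8 at 0.01 and 13 to 108 with 1 array left out. Against day 3 the 153 calls became 243 with array weights, 64 at 0.01 and 94 to 133 with 1 array left out. The 13 genes set apart became 0 with only the arrays compared, 7 with the second probe set (5 of them among the 13), 3 with the tubule covariate (Fam111a, Slc7a8 and, of the 13, Pgr), 3 with the macrophage covariate (Fxyd4 and, of the 13, Klk1 and Meis1), 3 at 0.01 and 5 to 18 with 1 array left out.

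With the tubule covariate the sign turned for Cat (0.41), Cyp2d26 (0.55), Dnase1 (0.074), Hao2 (0.0065) and Il6st (-0.017). With the mean of probe sets it turned for Cemip (0.086). With the second probe set it turned for Col4a3 (0.058), Fbln1 (-0.53), Hif1a (-0.48), Lifr (-0.10), Ltbp1 (-0.16), Mt1 (-0.16) and Rsad2 (0.079). With that probe set 27 more named calls ended without a turn of sign. Among them Acta2, Cubn, Cxcl16, Fgfr1, Fgfr2, Fosl2, H2-Aa, Hadhb, Hspg2, Htra3, Igfbp4, Ndufa5, Rrm2, Slc4a1 and Stat3 had held with each array left out. The cause was not tested. Of 199 named genes called, 66 were called with the tubule covariate, 153 with the second probe set and 168 to 180 with 1 array left out. Genes with 1 probe set kept it in the second probe set fit, so their values there were unchanged. Of all 2244 genes called, 1197 had several probe sets. The 153 is therefore not a measure of agreement between probe sets. The same holds for every count above of genes called or set apart with the second probe set. No paired analysis was possible because the groups share no replicate numbers.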
